A study of Arabidopsis thaliana with 2 samples.

Results

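WRKY transcription factors are a plant family of DNA-binding regulators. They are represented by the 5 probe sets, of 16541 deposited, whose platform annotation gives a single gene symbol beginning with WRKY or ATWRKY. Shares of all probe sets below are shares of these 16541, and the array may hold others. The 5 are WRKY6 (AT1G62300), WRKY20 (AT4G26640), WRKY22 (AT4G01250), WRKY47 (AT4G01720) and WRKY53 (AT4G23810), with 1 probe set each, among 9058 symbols given singly. The TAIR10.1 gene table lists 67 genes with a WRKY symbol, so most of the family was not analysed here. Some of those genes may lie under the 7062 probe sets that carry no symbol in the annotation used. Others may have no probe set among the deposited values. No probe set with several symbols listed a WRKY gene.

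Steady-state RNA was compared between KO-HsfA1d/A1e, a double knockout of the heat shock factors HsfA1d and HsfA1e, and the wild type, both of ecotype Columbia, with 1 Affymetrix array per genotype. Rosette leaves came from plants 2 weeks old, grown at 100 µE m-2 s-1 and then exposed to 400 µE m-2 s-1 for 30 min. Both genotypes received the high light and no array of untreated plants was analysed here, which leaves the light response itself unmeasured. The labels used here do not describe the knockout alleles, or say whether the plants of an array were pooled.

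WRKY proteins carry 1 or more WRKY domains, each combining the conserved residues that name the family with a zinc-binding fold, and they bind the W box, a short element in the promoters of their targets. Many family members are switched on quickly by pathogens, salicylic acid, wounding or reactive oxygen species, several are substrates of MAP kinases, and several regulate leaf senescence. HsfA1d and HsfA1e are class A1 heat shock factors, which switch on heat shock protein genes.

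All 5 WRKY probe sets had the lower intensity in KO-HsfA1d/A1e. WRKY53 showed the largest difference, at 1.60-fold lower, and the other 4 lay between 1.08-fold and 1.20-fold lower. None of the 5 reached 2-fold. Each genotype had a single array, so these differences have no replicate error and no test, and describe this pair of arrays. In bulk leaf RNA, fewer cells of a type and less RNA per cell cannot be told apart.

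WRKY53 encodes a group III WRKY factor known as a regulator of leaf senescence and of defence, whose transcript is known to respond to hydrogen peroxide. Its probe set had a deposited intensity of 276.7 in KO-HsfA1d/A1e and 443.7 in the wild type. The mutant value was therefore 37.6% below the wild-type value. On the scale of log2(intensity + 16), used for all differences below, the difference was -0.65, mutant minus wild type. The added 16 shrinks differences, and more so the dimmer the probe set.

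WRKY20 encodes a group I factor, the group whose members typically hold a pair of WRKY domains. Its intensity was 395.9 in KO-HsfA1d/A1e and 459.8 in the wild type, a difference of -0.21 and a 1.16-fold lower value. Its mutant value was 13.9% below its wild-type value, a smaller gap than that of WRKY53.

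**Figure D1:**
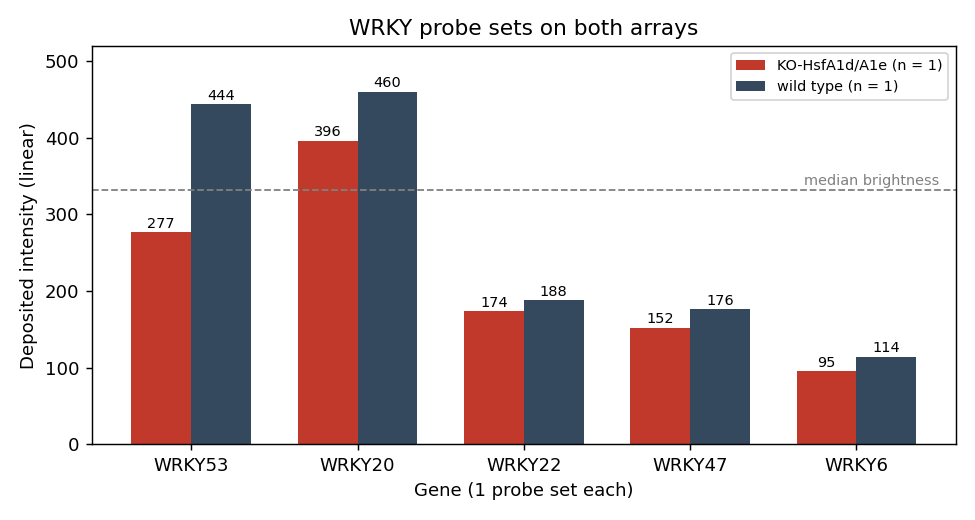
Deposited intensity (linear) of the 5 WRKY probe sets, with KO-HsfA1d/A1e in red left of the wild type in dark blue and 1 array behind each bar. The dashed line marks an intensity of 332.0, which corresponds to the median brightness of all probe sets. The red bar is the shorter in all 5 pairs, and the widest gap is that of WRKY53, at 276.7 against 443.7.

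WRKY6 encodes a group IIb factor known for roles in senescence, pathogen defence and the response to phosphate supply. Its intensity was 95.1 in KO-HsfA1d/A1e and 114.4 in the wild type, a difference of -0.23. WRKY47, the other group IIb gene, had 152.1 in KO-HsfA1d/A1e and 176.3 in the wild type, a difference of -0.19. These group IIb probe sets were thus 1.20-fold and 1.16-fold lower in the mutant.

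WRKY22 encodes a group IIe factor known to act downstream of a MAP kinase cascade in the response to bacterial flagellin. It showed the smallest difference of the 5, with an intensity of 173.6 in KO-HsfA1d/A1e and 188.1 in the wild type. That is a difference of -0.11, or 1.08-fold lower. The members thus came from groups I, IIb, IIe and III, with too few genes in each for anything to be read about a group.

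Brightness, which differs between probe sets and does not rank transcript amounts, divided the 5 genes into those above and those below the median of all probe sets, a mean log2 value of 8.44. WRKY20 and WRKY53 were above it, with means of 8.79 and 8.52. WRKY22, WRKY47 and WRKY6 were below it, with means of 7.62, 7.49 and 6.91, at percentiles 33.7, 31.6 and 22.2 of all probe sets. Relative to that median, WRKY53 lay just inside at 0.08 log2 units, and WRKY22 was the nearest on the outside at -0.82. For WRKY53 the arrays fell on opposite sides, with the mutant value at percentile 44.7 of its array and the wild-type value at percentile 58.3. No detection calls were given, so signal could not be told from background for the dimmer 3. The dimmest 5% of each array lay under 31.9 in KO-HsfA1d/A1e and 31.7 in the wild type. All 5 were above these limits, which do not estimate background and so do not show detection.

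The background of the comparison sets the scale of these differences. Of all probe sets, 45.6% had the lower value in the mutant, against 5 of 5 WRKY probe sets. Their median difference was -0.21, beside a median of 0.03 over all probe sets. The 5 were read from the same arrays and are not replicates of one another.

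At 2-fold, 0 of the 5 WRKY probe sets were lower, beside 2.28% of all probe sets, and 0 were higher, beside 0.768%. At 1.5-fold, WRKY53 was the 1 of the 5 that was lower, beside 5.83% of all probe sets. Above median brightness, WRKY20 and WRKY53 were both lower, beside 43.7% of 8271 probe sets, with a median of -0.43. At 2-fold, 0 of these 2 were lower, beside 1.38%, and 0 were higher, beside 0.121%. WRKY53 is among them only through its wild-type value, and with both values required to pass, WRKY20 alone was left, at -0.21, so nothing is read from these counts.

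Among all 16541 probe sets, 810, or 4.90%, had a more negative difference than WRKY53. For WRKY6, WRKY20, WRKY47 and WRKY22 the shares were 19.4%, 21.1%, 22.3% and 31.3%. The central 95% of all differences ran from -0.95 to 0.69, and all 5 WRKY genes lay inside it. That range depends on brightness. It was -0.68 to 0.52 above median brightness and -1.11 to 0.83 below it, so the -0.65 of WRKY53, whose arrays fell on both sides, was just inside the narrower range and well inside the wider one.

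**Figure D2:**
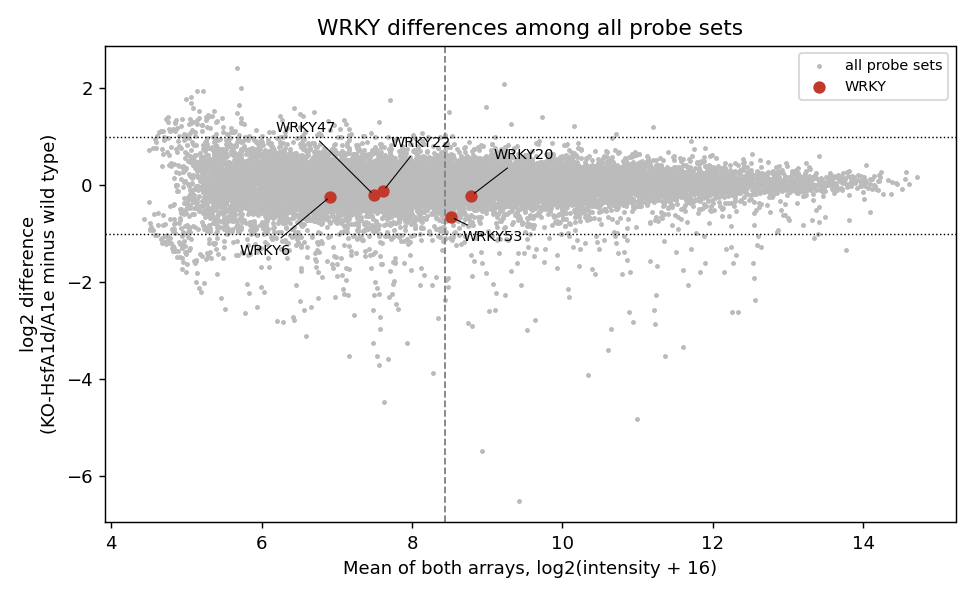
Difference of log2(intensity + 16), KO-HsfA1d/A1e minus wild type, against the mean of both arrays on the same scale, for all 16541 probe sets (grey) and the 5 WRKY probe sets (red). The dashed line marks the median brightness and the dotted lines 2-fold. All 5 WRKY points lie below 0 and between the dotted lines, with WRKY53 the lowest at -0.65.

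A limited estimate of measurement scatter came from other genes represented by more than 1 probe set, since each WRKY gene had only 1. For the 13 such genes above median brightness, differences of the same gene had an SD of 0.20 log2 units and the largest gap was 0.56. Over all brightness levels, 72 such genes gave an SD of 0.32 and a largest gap of 1.66. The difference of WRKY53 was thus larger than both SDs. WRKY53 is above median brightness only through its wild-type value, so the SD of 0.20 may not apply to it. The gaps are distances between probe sets of a gene, so no WRKY difference is ranked against them. The differences of the other 4 were smaller than the SD of 0.32. That of WRKY20, which is above median brightness, was -0.21, about the size of the SD of 0.20 there. This scatter leaves out the spread between plants and between RNA preparations.

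Genes that act with WRKY factors were sparsely named. Here and below, a listed gene counts as measured only where a probe set with a single symbol stands for it. Others may lie under probe sets with no symbol or several. None of 14 genes of the MAP kinase cascade and its VQ-protein partners, which activate or bind WRKY factors, was measured under its own symbol. Of 18 genes of salicylate and camalexin defence, 2 were measured, both below median brightness and both lower in the mutant, 1 of them by over 2-fold, beside 45.6% and 2.28% of all probe sets. GRX480, a glutaredoxin of salicylate signalling, had 42.7 in KO-HsfA1d/A1e and 172.7 in the wild type, a difference of -1.68. SAG101, a partner of the immune regulator EDS1, had 54.0 in KO-HsfA1d/A1e and 61.4 in the wild type, a difference of -0.14. GRX480 was thus further from 0 than any WRKY gene, while SAG101 was close to WRKY22.

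Of 18 other stress-responsive transcription factor genes, 2 were measured, both above median brightness. STZ, a zinc finger factor, had 917.1 in KO-HsfA1d/A1e and 1414 in the wild type. Its difference of -0.62 was close to the -0.65 of WRKY53. BZIP60, a factor of the endoplasmic reticulum stress response, differed by -0.04. None of the stress factor genes measured reached 2-fold.

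The bZIP family, dimeric leucine zipper factors with roles in stress, light and hormone responses, was the only other transcription factor family sought by symbol with more than 1 measured gene. It was chosen after the data were seen, together with MYB and NAC, whose numbered symbols matched 0 and 1 probe sets. The 1 is NAC014, with 166.3 in KO-HsfA1d/A1e and 130.4 in the wild type, a difference of 0.32. Of the 10 bZIP genes, 7 were lower in the mutant, beside 45.6% of all probe sets, and 3 were higher. Their median difference was -0.16, beside -0.21 for the 5 WRKY genes and 0.03 over all probe sets. Above median brightness, 5 of 6 bZIP genes were lower, beside 43.7% of probe sets there, with a median of -0.26. The WRKY genes there differed by -0.21 (WRKY20) and -0.65 (WRKY53, there only through its wild-type value). The 10 differences ran from -0.46 for BZIP28, a membrane-tethered factor of the endoplasmic reticulum stress response, to 0.34 for bZIP52. BZIP28 had 629.6 in KO-HsfA1d/A1e and 872.9 in the wild type. WRKY53 lay below the whole bZIP range, and the other WRKY genes lay within it. The difference between the families was not tested, as each genotype had 1 array.

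**Figure D3:**
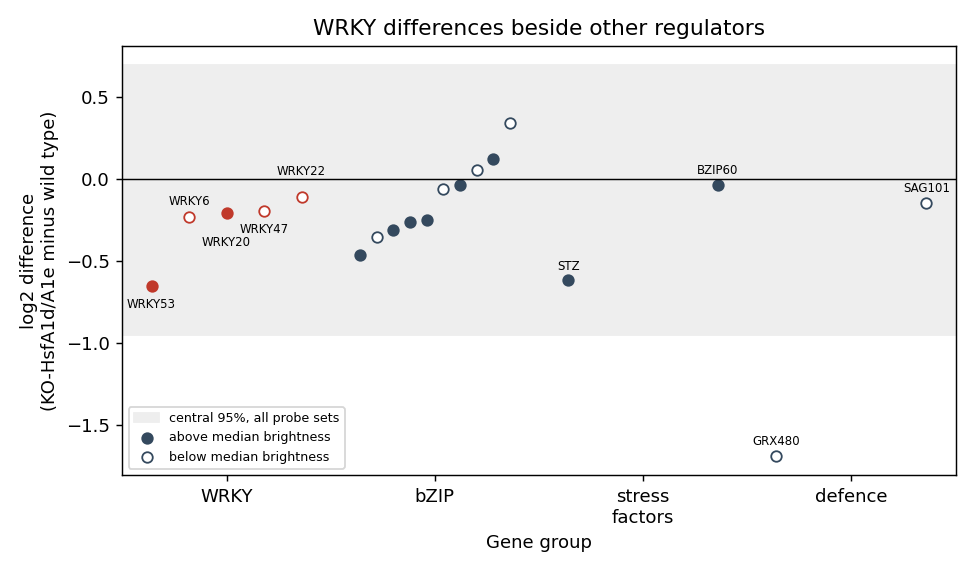
Difference of log2(intensity + 16), KO-HsfA1d/A1e minus wild type, for the 5 WRKY genes, 10 bZIP genes and the measured genes of the stress factor and defence lists (2 each, with BZIP60 also among the bZIP genes). Filled points are above median brightness, open points below it, and the grey band is the central 95% (-0.95 to 0.69) of all probe sets. All 5 WRKY points lie inside the band, and GRX480 at -1.68 lies below it, also below the -1.11 that bounds the dimmer probe sets.

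The WRKY differences stayed below 0 under quantile normalization and loess. Median centring subtracts the overall median difference of 0.03, so it could only move the WRKY differences further below 0. Another pseudocount changes the size of the WRKY differences and cannot change their direction. Over these scalings and pseudocounts, WRKY53 ranged from -0.68 to -0.58, and WRKY20 from -0.24 to -0.19. WRKY6 ranged from -0.27 to -0.17, WRKY47 from -0.22 to -0.15 and WRKY22 from -0.13 to -0.08. The order of WRKY53 below the other 4 was kept throughout, and WRKY53 was under 1.5-fold with a pseudocount of 64.

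**Figure D4:**
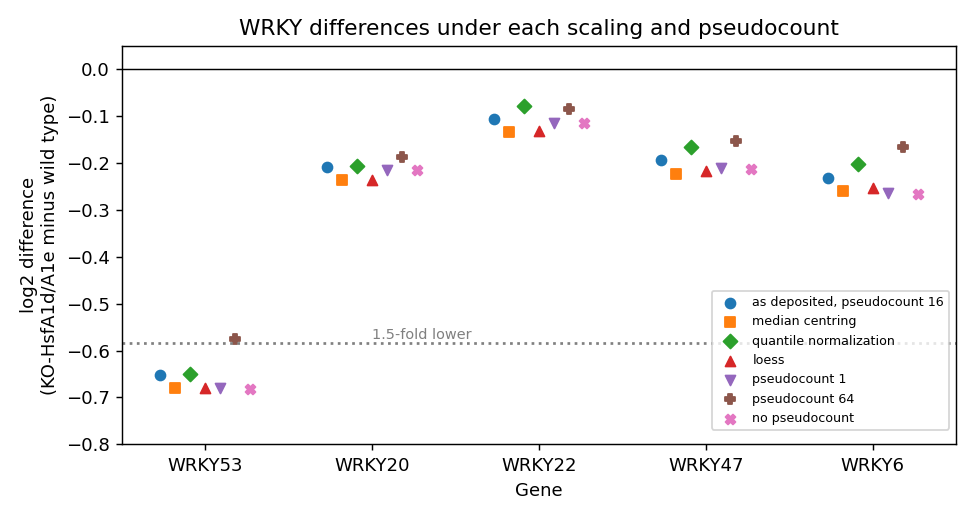
Difference, KO-HsfA1d/A1e minus wild type, of the 5 WRKY genes on a log2 scale under the deposited scaling with a pseudocount of 16 and 6 alternatives, with 1.5-fold lower dotted. All points lie below 0, and those of WRKY53, from -0.68 to -0.58, lie below all points of the other 4 genes.

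Over the arrays as a whole, median intensity was 331.9 in KO-HsfA1d/A1e and 334.1 in the wild type, and Pearson's r between the arrays was 0.98 over probe sets on the log2 scale, where probe sets are not independent replicates. No values of the targeted genes HsfA1d and HsfA1e are given here, so the genotype labels were not checked on them. Of 8 leaf markers, 3 were measured, namely RCA, LHCB4.1 and LHCB4.2, with intensities of 11304 to 25125 in KO-HsfA1d/A1e and 11574 to 22929 in the wild type. Their differences were 0.13, -0.03 and -0.03. The root marker PYK10, the 1 measured of 3, had 3758 in KO-HsfA1d/A1e and 2555 in the wild type, a difference of 0.55 in the direction opposite to the WRKY genes, and its part in their differences was not tested. None of the 3 flower and 3 seed markers was measured under a single symbol, and they may lie under other probe sets.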

How the data were processed

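Per the labels' protocols, 100 ng of total RNA was turned into biotinylated cRNA with the 3'IVT Express kit. The authors deposited 1 linear intensity for each probe set on each array. How probes were summarized, corrected for background, scaled or filtered is not given in the sources used here. Symbols came from GEO's platform annotation: 9139 probe sets had 1 symbol, 340 several and 7062 none. All 5 WRKY symbols matched the TAIR10.1 gene table through Entrez identifiers. Coordinates are left out because the values name no genome build. Differences are of log2(intensity + 16), KO-HsfA1d/A1e minus wild type, as deposited, since the medians differed by 0.02 among probe sets above median brightness, under the limit of 0.1. List genes took their brightest singly named probe set, and up to 4 per list above median brightness were to be named. GRX480 and SAG101, below it, and BZIP28, bZIP52 and NAC014 were chosen with their values known. The members and lists were chosen with earlier results of these data known. WRKY subgroups are textbook assignments. Precision is limited by the number of arrays, 1 per genotype, so there is no SD and no p-value. The alternatives were median centring, quantile normalization, loess (span 0.3), other pseudocounts (1, 64 or none), other brightness filters, thresholds of 1.5-fold and 3-fold, and leaving out probe sets ending in _s_at or _x_at. Python 3.11.15, pandas 2.3.3 and statsmodels 0.14.6 were used. The procedure was tested on simulated data whose planted changes were larger than any WRKY difference and lay in brighter probe sets. That test does not cover differences of the WRKY size.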

Additional observations from a re-analysis of the deposited data

How the results depend on the processing

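No paired analysis was possible because there is 1 array of each genotype, and no replicate could be left out. With no brightness filter, 5 WRKY probe sets were counted as lower in place of 2, beside 45.6% of all probe sets in place of 43.7%. The WRKY median was -0.21 in place of -0.43, since 3 dimmer probe sets enter. With the filter on the dimmer value, chosen after seeing the data, WRKY20 alone was kept (1 lower, median -0.21), beside 43.3% of 7854 probe sets lower. At 1.5-fold, 1 WRKY probe set above median brightness, WRKY53, was lower in place of 0, beside 3.34% of 8271 probe sets there. WRKY53 is above median brightness only through its wild-type value, so nothing is read from these counts. With the filter at percentile 75, 0 WRKY probe sets were kept, so no value could be had. Leaving out probe sets ending in _s_at or _x_at removed no WRKY probe set. The 15 single-gene values under other scalings kept their sign, which for median centring was fixed in advance, as it subtracts a positive median. The values under other pseudocounts could not change sign either. With no background estimate, signal over background could not be judged for the dimmer probe sets.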
